A study of Mus musculus with 8 samples.

Results

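CD4 T cells of the mouse colonic lamina propria, the connective tissue under the gut epithelium, were compared between mice given dextran sulfate sodium (DSS) and untreated mice, with 2 genotypes pooled. Single cells were measured by droplet 3' RNA sequencing with unique molecular identifiers (UMIs) in 8 libraries, 2 for each combination of genotype and treatment, each described as an independent biological replicate. Treated mice drank 2% DSS for 7 days and plain water for 3 days, untreated mice drank plain water throughout, and all were taken on day 10. All mice were C57BL/6, 10 to 12 weeks old, on a normal diet and in specific pathogen-free housing. They were wildtype (WT in the titles) or carried the mutant allele titled S203AKI. Cells were released with collagenase, DNase and dispase, purified on Percoll and enriched for CD4+ T cells with a magnetic isolation kit, and about 10000 were loaded per library. A cell of the deposited cell list was taken as a CD4 T cell when Cd3e, Cd3d, Cd3g, Trac and Trbc2 together gave at least 2 UMIs and Cd79a, Col3a1 and C1qa gave at most 1 UMI each. That rule kept 19833 of the 27420 listed cells (72.3%), 8128 from the 4 untreated and 11705 from the 4 DSS libraries. Of the kept cells, 1729 had exactly 2 T cell gene UMIs, and 1261 listed cells with exactly 1 were left out. A Cd4 UMI was present in every kept cell, a Cd8a UMI in 0.0855% to 0.420% and a UMI of the gamma-delta receptor gene Trdc in 0.0390% to 0.791%.

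DSS in drinking water injures the colonic epithelium, and bacterial products then reach the lamina propria and draw in neutrophils and monocytes. CD4 T cells there include effector cells, such as interferon-gamma producing Th1 cells and interleukin-17 producing Th17 cells, and regulatory T cells, which carry the transcription factor Foxp3, restrain the effectors and can take part in tissue repair. After DSS is withdrawn the epithelium heals, so the time of harvest falls in early recovery.

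The UMIs of the T cells of each library were summed, which gave 6722571 to 15569035 UMIs from 1800 to 3507 cells per library, with a median of 2161.5 to 3155 UMIs per cell. The first principal component of the 8 sums held 48.4% of the variance and separated the arms. The second held 12.1% and put DSS-treated WT and S203AKI replicates 1 at -18.5 and -16.2 and replicates 2 at 8.26 and 16.2. Cells with at least 5 UMIs of the stress-induced chaperone genes Hspa1a and Hspa1b stood apart in untreated S203AKI replicate 1, with 493 of 1800 T cells (27.4%), against 1.74% to 11.6% in the other libraries. A barcode sequence occurred in more than 1 library 45 times, and no pair of libraries shared more than 6. The titles carry numbers that differ between arms and are neighbours for replicates of the same number within an arm. What these numbers mark, and whether the arms were processed on different days, is not stated. Such a difference and the treatment cannot be told apart. The main tests treat the 4 libraries of an arm as independent.

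Of 10965 genes tested, 2367 (21.6%) differed at an adjusted p under 0.05, 1164 higher (10.6%) and 1203 lower (11%) after DSS, and 4048 had an unadjusted p under 0.05. These percentages are the background for the list counts over all T cells below. The lists were chosen with earlier results of these data known, so a count describes a list and does not test it. The 4 libraries of one arm lay wholly above the 4 of the other for 2024 of the called genes, against 2822 of all genes tested (25.7%). Changes were mostly small, with 173 called genes over 2-fold higher and 183 over 2-fold lower. The count was 1075 without untreated WT replicate 2, 1227 without untreated S203AKI replicate 2, 1234 without DSS-treated WT replicate 2 and 1303 without untreated S203AKI replicate 1. It was 1269 of 8836 genes when every cell was thinned to 1000 UMIs and 791 of 8582 in cells without an other-lineage UMI. It was 121 and 164 in the WT and S203AKI libraries alone, with 2 against 2. Other-lineage, here and below, covers only the B and plasma cell, macrophage and monocyte, and fibroblast marker lists, without Igkc, Igha, Apoe, Cd68 and Fcer1g. Cells with UMIs of dendritic cell, neutrophil, endothelial or epithelial markers were not removed for them. The background for counts in thinned cells is 6.87% higher and 7.49% lower, and for cells without an other-lineage UMI it is 4.4% higher and 4.81% lower. That cell set kept 27.8%, 44.0%, 37.2% and 34.03% of the T cells of the untreated libraries and 31.6%, 12.3%, 10.1% and 50.2% of those after DSS (264 to 1760 cells per library), so it is uneven within the DSS arm. With 1 library left out, the shares higher and lower were 9.95% and 9.8% (untreated WT replicate 1), 4.77% and 4.87% (untreated WT replicate 2), 5.73% and 5.96% (untreated S203AKI replicate 1) and 5.37% and 5.65% (untreated S203AKI replicate 2). Among DSS libraries they were 12% and 11% (WT replicate 1), 5.3% and 5.79% (WT replicate 2), 8.72% and 9.38% (S203AKI replicate 1) and 7.3% and 7.43% (S203AKI replicate 2). A gene was tested when at least 4 libraries reached 1.38 CPM. For 102 of the higher and 121 of the lower genes the arm with the lower level did not itself reach that in all 4 libraries. Such genes entered only with the arm where they are high, a difference was therefore fixed in part by the filter, and they are named beside the list counts over all T cells below.

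Foxp3 and 8 other genes of the 18 in the regulatory T cell list rose after DSS. Foxp3 (ENSMUSG00000039521, chrX:7573644-7595245, plus strand, GRCm38), the lineage factor of regulatory T cells, stood in the order WT replicates 1 and 2 and S203AKI replicates 1 and 2, in CPM (a library's UMI count of the gene scaled to its total), at 55.3, 49.8, 46.6 and 35.3 CPM untreated and 122, 138, 102 and 141 CPM after DSS. All 4 DSS libraries were above all 4 untreated ones, with means of 46.8 ± 8.43 and 126 ± 17.8 CPM (SD, n = 4) and a log2 fold change of 1.44 ± 0.13, adjusted p = 0.000274 (SE, edgeR quasi-likelihood test, Benjamini-Hochberg over all genes, here and below). In sums over cells, more cells of a type and more RNA per cell cannot be told apart. Tnfrsf9 (ENSMUSG00000028965, chr4:150914562-150946102, plus strand), the costimulatory receptor 4-1BB, was at 147, 109, 111 and 105 CPM untreated and 284, 303, 274 and 268 CPM after DSS (log2 fold change 1.26 ± 0.10, adjusted p = 8.21e-05). Itgb8 (ENSMUSG00000025321, chr12:119158022-119238802, minus strand), the integrin chain with which regulatory cells activate latent TGF-beta, was at 10.9, 10.7, 9.56 and 8.87 CPM untreated and 25.2, 32.5, 18.005 and 21.99 CPM after DSS (1.27 ± 0.13, adjusted p = 0.000635). Neither gene overlapped between arms, and both kept their call without any single library. The interleukin-2 receptor alpha chain Il2ra (0.60 ± 0.07, adjusted p = 0.0017), Ikzf2, which encodes Helios (0.47 ± 0.10, adjusted p = 0.0123), the inhibitory receptor Ctla4 (0.42 ± 0.09, adjusted p = 0.0131) and the interleukin-35 subunit Ebi3 (0.69 ± 0.16, adjusted p = 0.0146) rose less. In all, 9 of the 18 members of the regulatory T cell list were higher and 1 was lower, with a list median of 0.32 against 0.0036 over all genes tested. Within cells with a Foxp3 UMI 3 of 17 tested members were higher and 2 lower, where 5.76% and 6.44% of all genes tested were. Within T cells without one 5 and 1 of 17 were, where 7.91% of all genes were called each way. Foxp3 itself chose these classes, so its level within them was set by that choice. It is among the 17 of the first class, where it was not called, and has no UMI in the second. The second class can hold regulatory cells in which Foxp3 was missed. The lower member over all T cells was the costimulatory receptor Tnfrsf4, and its call ended without untreated WT replicate 2 (0.117), untreated S203AKI replicate 1 (0.0845), untreated S203AKI replicate 2 (0.101), DSS-treated WT replicate 2 (0.0838), DSS-treated S203AKI replicate 1 (0.0782) and DSS-treated S203AKI replicate 2 (0.085). Il10, the suppressive cytokine of the list, was at 84.4, 90.1, 84.7 and 103 CPM untreated and 107, 135, 97.9 and 110.2 CPM after DSS and missed the threshold (0.31 ± 0.11, adjusted p = 0.0656).

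Genes of tissue retention and repair were next to them. Itgae (ENSMUSG00000005947, chr11:73090583-73147446, plus strand), the CD103 chain that binds E-cadherin on epithelium, was at 16.98, 16.7, 15.6 and 16.1 CPM untreated and 41.4, 46.5, 39.4 and 35.97 CPM after DSS, a rise of 1.31 ± 0.09 on the log2 scale (adjusted p = 3.70e-05) with no overlap. Il1rl1, the interleukin-33 receptor ST2, was at 29.3, 21.7, 17.3 and 14.98 CPM untreated and 59.6, 38.7, 33.6 and 24.2 CPM after DSS (0.90 ± 0.17, adjusted p = 0.00649), and the highest untreated library lay above the lowest DSS library. Areg, the growth factor amphiregulin, was at 243, 286, 199.97 and 436 CPM untreated and 535, 521, 783 and 355 CPM after DSS (0.92 ± 0.26, adjusted p = 0.0292). Its call ended without untreated WT replicate 1 (0.0728), untreated WT replicate 2 (0.0785), untreated S203AKI replicate 1 (0.0753), DSS-treated WT replicate 2 (0.066) and DSS-treated S203AKI replicate 1 (0.0842), with the adjusted p in parentheses. Gata3 did not pass (-0.05 ± 0.08, adjusted p = 0.696), and of the 8 repair genes 3 were higher and 0 lower. Of 19 homing and retention genes 5 were higher and 3 lower, and 3 were higher without untreated WT replicate 2, untreated S203AKI replicate 2 or DSS-treated WT replicate 2, where Selplg and Itga4 lost their calls. The call of Rgs2, a lower member, ended without any 1 of 7 libraries. The chemokine receptors Cxcr4 and Ccr2 rose by 0.87 ± 0.15 (adjusted p = 0.00511) and 0.71 ± 0.13 (adjusted p = 0.00643), and the gut-homing integrin chain Itgb7 stayed within its spread, at 196 to 222 CPM untreated and 179 to 239 CPM after DSS. Itga1, the chain of the collagen receptor VLA-1, was lower (-1.24 ± 0.23, adjusted p = 0.00688), and it stood at 109.6 and 94.1 CPM in the untreated and DSS barcodes of the same libraries that had no T cell gene UMI.

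**Figure D1:**
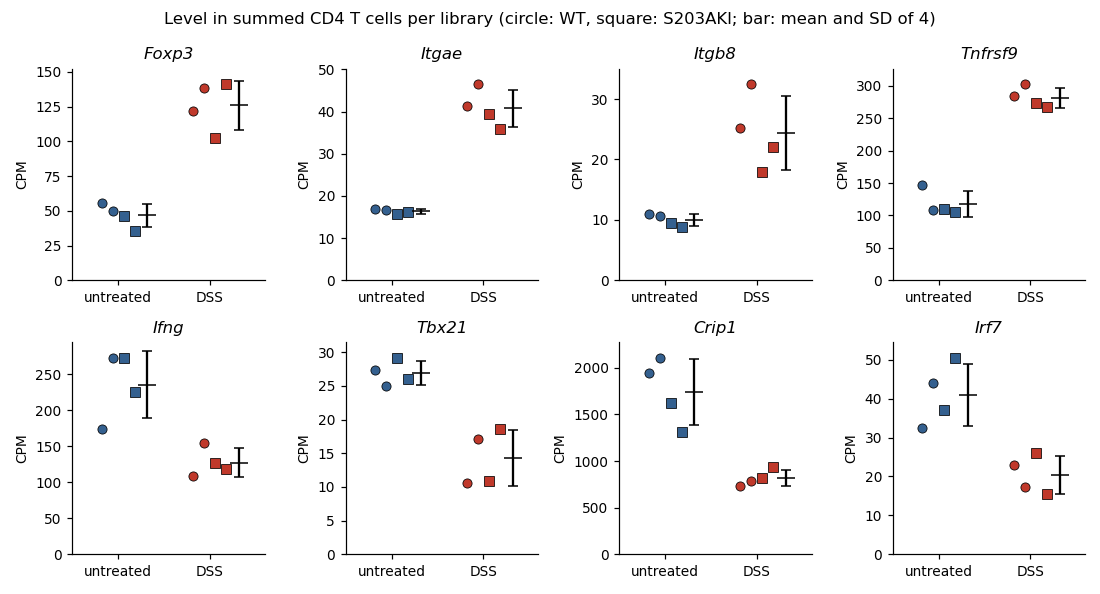
Level of 8 genes in summed CD4 T cells, in CPM (TMM-scaled, vertical axis from 0), in the 4 untreated (blue) and 4 DSS (red) libraries. Circles are WT, squares S203AKI, and bars give the mean and SD of 4 libraries. Foxp3, Itgae, Itgb8 and Tnfrsf9 lie higher and Ifng, Tbx21, Crip1 and Irf7 lower in all 4 DSS libraries than in any untreated one.

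The share of T cells with at least 1 UMI of a marker was taken after every cell had been thinned to 1000 UMIs, which left out 319 shallower cells. Cells with a Foxp3 UMI made up 4.22%, 4.04%, 4.04% and 3.00% of T cells in the untreated libraries and 10.1%, 10.8%, 9.02% and 11.1% after DSS. The means were 3.82% ± 0.558 and 10.3% ± 0.936 (SD, n = 4), the arms did not overlap, and the exact two-sided permutation p was 0.0286, the smallest that 70 splits allow. Without thinning the means were 9.58% and 22.7%. Fibroblast barcodes of the same libraries, which should lack Foxp3, gave 0.0840% and 0.136% at the same depth. They were barcodes off the cell list with at least 5 Col3a1 UMIs and no UMI of Cd4 or the T cell genes. Barcodes with T cell RNA were thus left out beforehand, so a low Foxp3 share was fixed in part by that choice. Itgae went from 1.20% ± 0.246 to 3.80% ± 0.380 and Ifng from 14.7% ± 1.96 to 9.20% ± 0.511, each with exact permutation p = 0.0286 and no overlap (n = 4). Adjusted over the 10 markers tested, the exact permutation p of these 3 was 0.0952, above 0.05. For Il1rl1 the T cell means were 1.55% and 2.76%, while the fibroblast barcodes moved from 0.171% to 2.13%, and in DSS-treated WT replicate 2 the fibroblast share, 3.83%, was above the T cell share, 3.03%. In the other 7 libraries the T cell share was above the fibroblast share. Without thinning it was above in 5 of 8, and in the 3 DSS libraries other than WT replicate 1 it was below. Il17a, Il22, Il10, Gzmb, Mki67 and Tcf7 overlapped between arms, with exact permutation p from 0.0857 to 0.914.

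**Figure D2:**
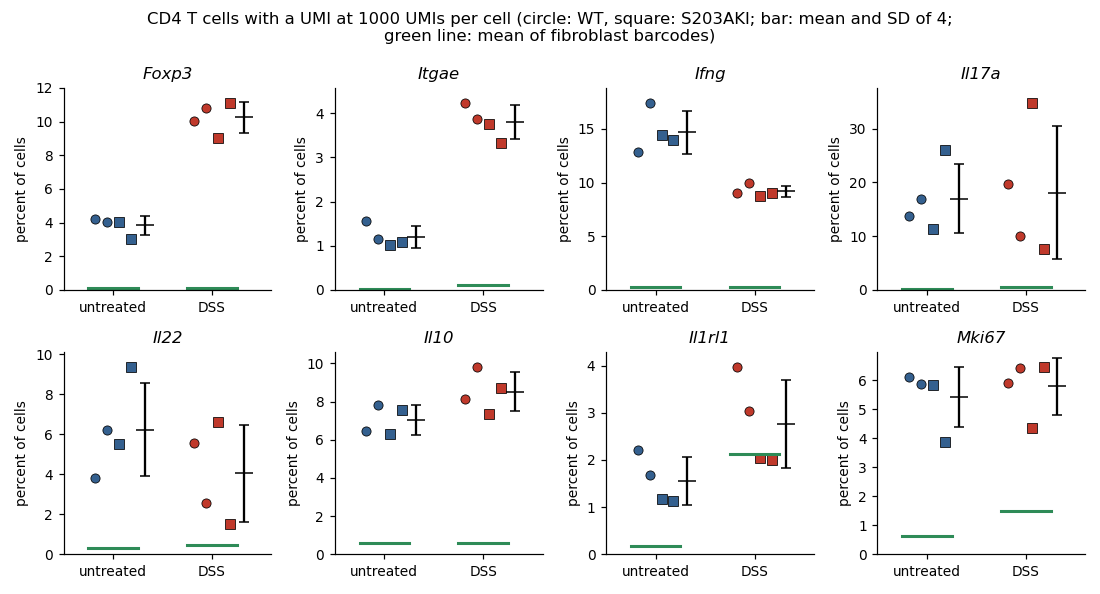
Share of CD4 T cells (percent, vertical axis from 0) with at least 1 UMI of each of 8 genes after thinning to 1000 UMIs per cell. Points are libraries (blue untreated, red DSS, circles WT, squares S203AKI), bars the mean and SD of 4, and green lines the mean share in fibroblast barcodes. Those barcodes were chosen to have no UMI of Cd4 or the T cell genes. Foxp3 and Itgae lie above and Ifng below the untreated libraries, Il17a spreads from 7.58% to 34.9% after DSS, and for Il1rl1 the fibroblast mean after DSS, 2.13%, lies above both S203AKI T cell shares.

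Effector genes moved unevenly. Ifng (ENSMUSG00000055170, chr10:118441046-118445892, plus strand), the defining cytokine of Th1 cells, was at 173, 272, 272 and 225 CPM untreated and 108, 155, 127 and 118 CPM after DSS, with all DSS libraries below all untreated ones (log2 fold change -0.89 ± 0.15, adjusted p = 0.00516). Tbx21, which encodes the Th1 factor T-bet, was at 27.4, 24.99, 29.1 and 26.03 CPM untreated and 10.6, 17.1, 10.8 and 18.6 CPM after DSS (-0.90 ± 0.18, adjusted p = 0.00839), and the cytotoxic granule gene Nkg7 was also lower (-0.96 ± 0.21, adjusted p = 0.0114). Neither Tbx21 nor Nkg7 was called in the cells without an other-lineage UMI. Of the 20 Th1 and cytotoxic genes 6 were lower and 2 higher, with a median of -0.26, and 3 were lower without untreated WT replicate 1. In cells without an other-lineage UMI 2 of 18 were lower and 1 higher. The higher ones were Eomes, which entered only through the DSS arm, and Hopx, a homeodomain protein of effector cells (0.79 ± 0.12, adjusted p = 0.00313). Cxcr3, the Th1 chemokine receptor, did not pass (-0.21 ± 0.10, adjusted p = 0.165).

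Of 15 Th17 genes 1 was higher and 1 lower. Il17a was at 342, 427, 428 and 1238 CPM untreated and 654, 311, 1294 and 164 CPM after DSS, a spread within each arm far larger than the difference between arms (0.06 ± 0.52, adjusted p = 0.94). Il17f (-0.62 ± 0.58, adjusted p = 0.46) and Il22 (-1.08 ± 0.41, adjusted p = 0.085) did not pass either. Il22 was at 209, 259, 305 and 454 CPM untreated and 185, 106, 232 and 43.4 CPM after DSS. The higher member was the leukotriene receptor Ltb4r1, whose call ended without untreated S203AKI replicate 1 (0.0685). The lower member was Il21, whose call ended without untreated WT replicate 2 (0.0862), untreated S203AKI replicate 1 (0.0928), untreated S203AKI replicate 2 (0.0996), DSS-treated WT replicate 2 (0.0629), DSS-treated S203AKI replicate 1 (0.0885) and DSS-treated S203AKI replicate 2 (0.104). Among 6 follicular helper genes Tox2 fell (-0.67 ± 0.14, adjusted p = 0.0109), as did Cxcr5. The call of Cxcr5 ended without untreated WT replicate 2 (0.0803), untreated S203AKI replicate 1 (0.0752), untreated S203AKI replicate 2 (0.0854), DSS-treated S203AKI replicate 1 (0.082) and DSS-treated S203AKI replicate 2 (0.0958). Bcl6 and Pdcd1 did not pass (-0.04 ± 0.10, adjusted p = 0.818 and 0.26 ± 0.11, adjusted p = 0.106).

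The comparison was repeated within T cells with a Foxp3 UMI (153 to 971 cells per library) and within those without. At an adjusted p under 0.05, 991 of 8124 genes (12.2%) differed in the first class, 468 higher (5.76%) and 523 lower (6.44%), and 1684 of 10648 (15.8%) in the second, 842 each way (7.91%). The arms did not overlap, whether called or not, for 9.33% of genes higher and 9.45% lower in the first class, and for 11.6% and 11.3% in the second. Without 1 library the first count was 452 (untreated WT replicate 2), 543 (DSS-treated WT replicate 2), 548 (untreated S203AKI replicate 2) or 580 (untreated S203AKI replicate 1), and for the same 4 libraries the second was 468, 680, 767 or 662. Without DSS-treated S203AKI replicate 2 the second was 1064. Cells were classed at their full depth, and cells with a Foxp3 UMI held 4299 to 4896 UMIs on average untreated and 3842 to 6082 after DSS, against 3059 to 3610 and 2542 to 3811 in cells without. The part of this depth difference in the class results was not tested. Rankings by fold change, here and below, left out genes of the other-cell-type and sex-linked lists, immunoglobulin, T cell receptor segment and haemoglobin genes. The 12 largest rises were taken among genes at least as high in T cells as in barcodes without T cell genes. This set, chosen after the values were seen, was Foxp3, Itgae, Cables1, Itgb8, Itgb3, Tnfrsf9, Slc16a3, Phlpp1, Gpr55, Apobec3, Gnpda1 and Ttn. Itgae rose both with (1.05 ± 0.17, adjusted p = 0.00146) and without a Foxp3 UMI (0.70 ± 0.12, adjusted p = 0.00766), and so did Tnfrsf9 (0.77 ± 0.10, adjusted p = 0.000378 and 0.94 ± 0.13, adjusted p = 0.00459). Itgb3, the beta chain of the vitronectin receptor, was at 25.2, 21.1, 24.4 and 16.4 CPM untreated and 41.3, 57.6, 52.2 and 59.3 CPM after DSS over all T cells and rose by 1.28 ± 0.18 with and 1.31 ± 0.17 without a Foxp3 UMI (adjusted p = 0.000556 and 0.0037). Apobec3, a cytidine deaminase that restricts retroviruses, was at 40.9, 33.98, 45.1 and 35.5 CPM untreated and 79.1, 88.5, 71.8 and 85.7 CPM after DSS (1.07 ± 0.11, adjusted p = 0.000555). Slc16a3, the lactate exporter MCT4, was at 20.9, 14.99, 15.02 and 12.2 CPM untreated and 25.2, 45.3, 36.4 and 42.5 CPM after DSS (1.25 ± 0.20, adjusted p = 0.00407).

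The difference of the DSS effect between both classes was then tested in 1 model of 16 sums with the library as a term, an analysis added after the within-class results had been seen. It called 277 of 11020 genes (2.51%), 121 in favour of the cells with Foxp3 (1.10%) and 156 the other way (1.42%), and 123, 133, 174 and 176 genes without untreated WT replicate 2, DSS-treated WT replicate 2, untreated S203AKI replicate 1 and DSS-treated S203AKI replicate 2. Among 24 proliferation genes, 9 had a more positive DSS effect in the cells with Foxp3 and 0 the reverse. Mki67, the proliferation antigen Ki-67, was at 147, 127, 130.3 and 63.4 CPM untreated and 253, 277, 147 and 249.5 CPM after DSS in cells with a Foxp3 UMI, without overlap although the highest untreated and the lowest DSS library were close (0.98 ± 0.18, adjusted p = 0.00282). In the other T cells it was at 160.1, 147, 148 and 98.6 CPM untreated and 117, 119.6, 80.8 and 129 CPM after DSS (-0.30 ± 0.15, adjusted p = 0.194). The difference was 1.27, adjusted p = 1.04e-06, and it was called in all 11 alternatives of this test. The mitotic ubiquitin-conjugating enzyme Ube2c (1.13, adjusted p = 0.000403), the ribonucleotide reductase subunit Rrm2 (1.06, adjusted p = 0.00222) and topoisomerase Top2a (0.85, adjusted p = 0.000403) differed in the same way. Of the 24 genes, 16 were higher and 0 lower within the cells with Foxp3, and 1 was higher and 1 lower in the other T cells. Over all T cells, where Mki67 was at 159, 145, 147 and 96.3 CPM untreated and 159, 165, 95.4 and 171 CPM after DSS (0.12 ± 0.17, adjusted p = 0.647), 4 of 24 were called, all higher. Of these 24, 2 were higher without any 1 of 3 libraries (untreated WT replicate 2, untreated S203AKI replicate 2 or DSS-treated S203AKI replicate 2). Of 23 tested in thinned cells 0 were higher and 1 lower, and of 23 in cells without an other-lineage UMI 0 were called. DESeq2 called 6 higher and 2 lower of 24, and without heat-shock high cells 7 were higher.

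The opposite pattern, a more negative DSS effect in cells with Foxp3, was found for 8 of 21 cytokine signalling genes, 4 of 12 quiescence and recirculation genes, 8 of 28 immediate early genes and 5 of 20 Th1 and cytotoxic genes, and for smaller shares of the other pathway lists. Ifng was at 92.7, 144, 174 and 61.9 CPM untreated and 43.01, 34.6, 39.2 and 37.8 CPM after DSS with a Foxp3 UMI (-1.62 ± 0.22, adjusted p = 0.000428) and at 188, 289, 284 and 239 CPM untreated and 142, 208, 155 and 170.1 CPM after DSS without (-0.57 ± 0.15, adjusted p = 0.032). Both classes were lower, with a difference between them of -1.05, adjusted p = 0.00345. The interleukin-12 receptor chain Il12rb2 (-1.06, adjusted p = 0.00258) and Tcf7, which encodes the memory and stemness factor TCF-1 (-0.98, adjusted p = 0.000223), also had a more negative effect there. Tcf7 was at 74.7, 81.3, 127 and 78.9 CPM untreated and 63.8, 50.5, 40.9 and 45.6 CPM after DSS with a Foxp3 UMI and at 128, 148, 181 and 177 CPM untreated and 192, 180.3, 141 and 167 CPM after DSS without, so the arms were apart in the first class and overlapped in the second. Il10 was lower within the cells with Foxp3 (-0.40 ± 0.12, adjusted p = 0.0411) and not called in the others (0.21 ± 0.16, adjusted p = 0.362), a difference of -0.67, adjusted p = 0.00631. Among B cell genes, Jchain, Igkc and Igha were higher in the cells with a Foxp3 UMI, 3 of the 5 tested there, and their part in these results was not tested.

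**Figure D3:**
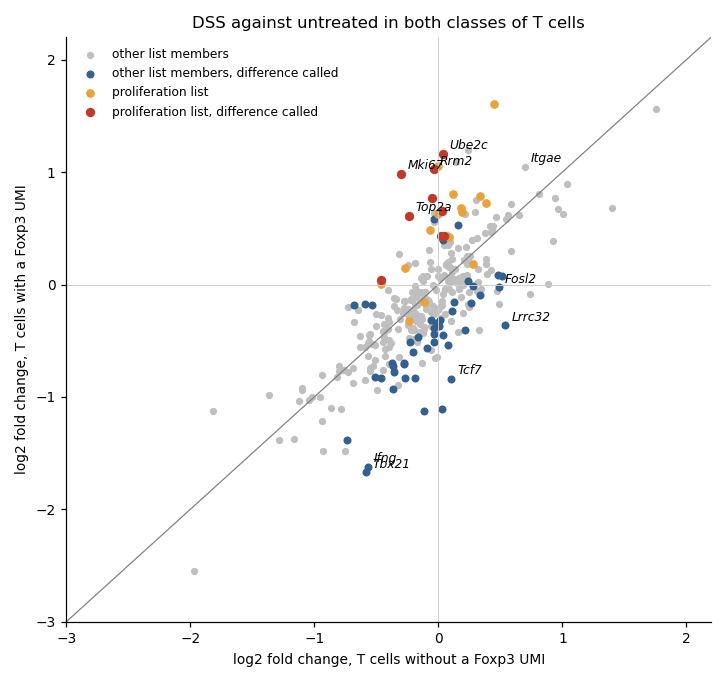
Log2 fold change of DSS over untreated in T cells without (horizontal axis) and with a Foxp3 UMI (vertical axis) for the 317 genes of the pathway lists tested in both. Proliferation genes are orange or, where the difference between classes was called, red, and other genes with a called difference are blue. Mki67, Ube2c, Rrm2 and Top2a lie above the line of equal effects, and Ifng, Tbx21 and Tcf7 below it.

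Of 24 genes in a list of LIM-domain proteins, lamins, annexins and S100 proteins, which also holds galectins and other membrane and filament genes, 15 were lower and 0 higher, with a median of -0.37. This list too was chosen with earlier results of these data known, so its count is not independent support for a fall. Crip1, a small LIM protein, was at 1941, 2105, 1619 and 1310 CPM untreated and 729, 785, 821 and 935 CPM after DSS (-1.08 ± 0.14, adjusted p = 0.00174). Lmna, the nuclear lamina protein lamin A/C, was at 317, 301, 225 and 209 CPM untreated and 95.3, 122, 96.7 and 140.3 CPM after DSS (-1.19 ± 0.16, adjusted p = 0.00181). Neither gene overlapped between arms, and the annexin Anxa2 (-0.80 ± 0.10, adjusted p = 0.0017) and the galectin Lgals3 (-0.98 ± 0.16, adjusted p = 0.00407) were also lower. Crip1 and Lmna were high outside T cells too, at 985 and 459.5 CPM and 528 and 424 CPM in untreated and DSS barcodes without T cell genes. The list had 13 lower members of 22 in the cells without any other-lineage UMI, and 10 without untreated WT replicate 2 or without DSS-treated WT replicate 2.

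Of 28 AP-1 and immediate early genes, which are transcribed within minutes of stimulation, 14 were lower and 1 higher, with a median of -0.30. Atf3, a stress-induced transcription factor, was at 53.8, 73.96, 102 and 70.96 CPM untreated and 27.3, 15.5, 24.7 and 16.5 CPM after DSS (-1.83 ± 0.21, adjusted p = 0.0013), and the stress sensor Gadd45g at 48.2, 64.7, 60.4 and 60.5 CPM untreated and 28.9, 23.3, 27.01 and 23.8 CPM after DSS (-1.18 ± 0.11, adjusted p = 0.000428). Jund (-0.87 ± 0.14, adjusted p = 0.00361) and Fosb (-0.59 ± 0.09, adjusted p = 0.00323) were lower, and Fos less so (-0.34 ± 0.07, adjusted p = 0.00792). The member that rose was Zfp36, which destabilises cytokine mRNAs (0.50 ± 0.10, adjusted p = 0.00704). In thinned cells 8 members were lower and 3 higher. Atf3 stood at 513 and 189.5 CPM in untreated and DSS barcodes without T cell genes. In cells without an other-lineage UMI 9 of the 28 were lower and 3 higher.

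Among genes of the aryl hydrocarbon receptor, a sensor of dietary and microbial ligands, the feedback target Tiparp was lower and the receptor itself did not pass. Tiparp, an ADP-ribosyltransferase induced by the receptor, was at 137, 135, 125 and 126 CPM untreated and 73.5, 70.03, 69.7 and 71.4 CPM after DSS (-0.88 ± 0.07, adjusted p = 8.21e-05, called in all 22 alternatives). Ahrr (ENSMUSG00000021575, chr13:74211118-74292331, minus strand), the receptor's repressor, was low, at 3.33, 3.71, 3.49 and 2.18 CPM untreated and 1.16, 0.539, 0.514 and 0.373 CPM after DSS, and entered only through the untreated arm. Ahr was at 169, 192, 145 and 198 CPM untreated and 167, 107, 159 and 97.2 CPM after DSS (-0.41 ± 0.18, adjusted p = 0.116). The core response element TNGCGTG was searched on both strands of the 250 bases before the start site in RefSeq promoters (GRCm38.p6). It was found in 1 of 6 members with an entry, Ahrr, and in 4.76% of all 27025 genes and 8.13% of the 8495 tested genes with an entry. The Ahrr window is shown because it is the only one of the list with a match. Its bases, chr13:74292332-74292385 on the minus strand, written 5′ to 3′ with the match in capitals, are these.
Ahrr: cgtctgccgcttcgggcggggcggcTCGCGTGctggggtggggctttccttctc
Tiparp had no match in its window.

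Of 25 interferon-induced genes tested, 8 were lower, 1 was higher and 16 were not called, with a median of -0.23. Of the 8, Ifit3, Mx1 and Usp18 entered only through the untreated arm. Of 21 tested in cells without an other-lineage UMI 3 were lower. The higher member was the GTPase Gbp7, whose call ended without untreated WT replicate 2 (0.114), untreated S203AKI replicate 1 (0.0792), untreated S203AKI replicate 2 (0.117), DSS-treated WT replicate 2 (0.0722), DSS-treated S203AKI replicate 1 (0.0549) and DSS-treated S203AKI replicate 2 (0.0952). In all T cells 4 were lower without untreated WT replicate 2, untreated S203AKI replicate 2 or DSS-treated WT replicate 2. Irf7, the factor that amplifies type I interferon, was at 32.4, 44.1, 37.02 and 50.5 CPM untreated and 22.9, 17.2, 26.1 and 15.4 CPM after DSS (-1.02 ± 0.18, adjusted p = 0.00597). Isg15 (ENSMUSG00000035692, chr4:156199424-156200818, minus strand), a ubiquitin-like modifier, was at 151, 168, 168 and 202.7 CPM untreated and 128, 108, 116 and 98.03 CPM after DSS (-0.61 ± 0.11, adjusted p = 0.00597), with all DSS libraries below all untreated ones. Ifit3 (ENSMUSG00000074896, chr19:34583531-34588731, plus strand), an antiviral RNA-binding adaptor, was low throughout, at 3.49, 3.86, 2.58 and 1.89 CPM untreated and 1.96, 1.21, 0.772 and 0.497 CPM after DSS. Bst2 (ENSMUSG00000046718, chr8:71534255-71537456, minus strand), which tethers virions, was at 94.7, 92.5, 109 and 81.7 CPM untreated and 84.4, 56.8, 81.1 and 41.99 CPM after DSS and did not pass (-0.52 ± 0.19, adjusted p = 0.0776). The core of the interferon-stimulated response element, GAAA, any 2 bases and GAAA again, was found on either strand in 11 of the 19 members with a RefSeq promoter entry, and in 3.46% of all 27025 genes and 3.40% of the 8495 tested ones. Of the 5 lower members with an entry, Isg15, Ifit1 and Ifit3 held it and Irf7 and Oasl2 did not. The call of Ifit1 ended without untreated WT replicate 1 (0.145), untreated WT replicate 2 (0.0651), untreated S203AKI replicate 1 (0.109), untreated S203AKI replicate 2 (0.0646), DSS-treated WT replicate 1 (0.0694), DSS-treated WT replicate 2 (0.136) and DSS-treated S203AKI replicate 2 (0.0967), and that of Oasl2 without untreated WT replicate 2 (0.0602) and untreated S203AKI replicate 2 (0.0516). The windows of Isg15, which fell, of Ifit3 and of Bst2, which did not pass, are shown to set them side by side, on the gene's strand, 5′ to 3′, with every match in capitals (TTTC, 2 bases and TTTC where it lies on the other strand). They are chr4:156200850-156200921 (minus strand), chr19:34583348-34583441 (plus strand) and chr8:71537562-71537627 (minus strand) in GRCm38.p6.
Isg15: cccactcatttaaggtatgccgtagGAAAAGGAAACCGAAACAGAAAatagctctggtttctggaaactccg
Ifit3: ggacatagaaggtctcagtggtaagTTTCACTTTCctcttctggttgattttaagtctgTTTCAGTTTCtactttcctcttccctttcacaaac
Bst2: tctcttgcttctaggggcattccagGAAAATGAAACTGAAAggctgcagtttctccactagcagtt
Isg15 carries 3 overlapping matches, and Ifit3 and Bst2 carry 2 each. A match describes the letters only, and both called and uncalled genes hold it.

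Of 15 MHC class I and antigen processing genes 5 were lower and 2 higher, and 2 were lower without DSS-treated WT replicate 2. With any 1 library left out except DSS-treated WT replicate 1, 1 was higher. In cells without an other-lineage UMI 4 of 15 were lower and 0 higher. The immunoproteasome subunit Psmb8 was at 336, 395, 381 and 339 CPM untreated and 308, 236, 237 and 217 CPM after DSS (-0.54 ± 0.11, adjusted p = 0.00776), while the peptide transporter Tap2 rose (0.52 ± 0.10, adjusted p = 0.00804) and B2m did not pass (0.10 ± 0.08, adjusted p = 0.426).

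**Figure D4:**
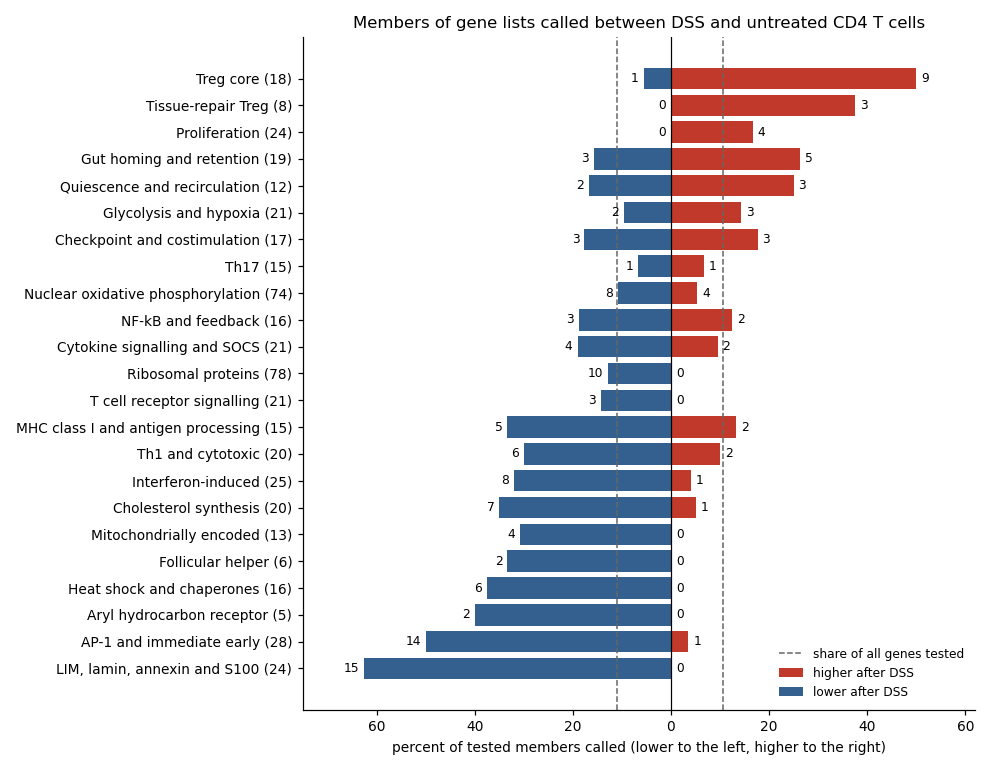
Percent of the tested members of each pathway, ribosomal and mitochondrial gene list (number in parentheses) called higher (red, to the right) or lower (blue, to the left) after DSS in summed CD4 T cells, with the number of genes at the bar's end. Dashed lines give the shares of all 10965 genes tested, 10.6% and 11%. Of these lists the regulatory T cell list reaches furthest to the right with 9 of 18 and the LIM, lamin, annexin and S100 list furthest to the left with 15 of 24. The lists were chosen with earlier results of these data known, so their order is not a test. The T cell receptor list is drawn with the 5 genes that chose the cells.

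Of 20 cholesterol synthesis and uptake genes 7 were lower and 1 higher, and 1 was lower without untreated WT replicate 2 or untreated S203AKI replicate 2. Cyp51, which demethylates lanosterol, was at 104, 129.5, 111 and 117 CPM untreated and 79.1, 59.5, 79.1 and 47.8 CPM after DSS (-0.81 ± 0.15, adjusted p = 0.0069). The member that rose was the cholesterol exporter Abca1, at 170.0 and 301 CPM in barcodes without T cell genes. The sterol regulatory element TCACNCCAC was found in 1 of 13 members with a promoter entry, Hmgcs1, and in 1.22% of all genes. The call of Hmgcs1 ended without untreated WT replicate 2 (0.133), untreated S203AKI replicate 1 (0.0583), untreated S203AKI replicate 2 (0.141), DSS-treated WT replicate 1 (0.0889), DSS-treated WT replicate 2 (0.0734), DSS-treated S203AKI replicate 1 (0.0602) and DSS-treated S203AKI replicate 2 (0.112). Of 21 glycolysis and hypoxia genes 3 were higher and 2 lower, near the shares of all genes tested. Slc16a3 rose, as above, the hexokinase Hk2 fell (-0.62 ± 0.09, adjusted p = 0.00313) and the glucose transporter Slc2a1 did not pass (0.14 ± 0.11, adjusted p = 0.372). Of 78 ribosomal protein genes 10 were lower and 0 higher, with 19 lower by DESeq2 (background 8.45% higher and 9.71% lower) and 2 lower without any 1 of 4 libraries (untreated WT replicate 2, both untreated S203AKI or DSS-treated WT replicate 2). Of 74 nuclear oxidative phosphorylation genes 8 were lower (Cox7a1 entered only through the untreated arm) and 4 higher, and of 13 mitochondrially encoded genes 4 were lower. In thinned cells 19 of 77 ribosomal protein genes were lower, and of 73 oxidative phosphorylation genes 12 were lower and 1 higher. Without DSS-treated WT replicate 1 the ribosomal list had 19 lower members, where 11% of all genes were lower. The oxidative phosphorylation list had 2 lower members without any 1 of 4 libraries (untreated WT replicate 2, untreated S203AKI replicate 1, DSS-treated WT replicate 2 or DSS-treated S203AKI replicate 2), and the mitochondrially encoded list 2 without untreated S203AKI replicate 1 or DSS-treated WT replicate 2. Higher members of the oxidative phosphorylation list were 2 without untreated WT replicate 2 or untreated S203AKI replicate 2.

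Il7r, the survival cytokine receptor, was at 257, 246, 180.4 and 207 CPM untreated and 333, 387, 302 and 323 CPM after DSS (0.60 ± 0.08, adjusted p = 0.00228), whereas Klf2 and its target S1pr1, which govern exit from tissue, fell (-0.63 ± 0.09, adjusted p = 0.00235 and -0.47 ± 0.09, adjusted p = 0.00785). Of 12 quiescence and recirculation genes 3 were higher and 2 lower, and 1 was higher without any 1 of 4 libraries (untreated WT replicate 2, both untreated S203AKI or DSS-treated WT replicate 2). Of 21 cytokine signalling genes 4 were lower and 2 higher, among them Stat5b higher (0.47 ± 0.09, adjusted p = 0.0069) and Smad7, the inhibitor of TGF-beta signalling, lower (-0.50 ± 0.10, adjusted p = 0.00763). The lower members were 2 without untreated WT replicate 2 or untreated S203AKI replicate 2, 7 without DSS-treated S203AKI replicate 1, and 1 of 21 in cells without an other-lineage UMI. Of this list 1 was higher without untreated WT replicate 1 or 2, untreated S203AKI replicate 1, DSS-treated WT replicate 2 or DSS-treated S203AKI replicate 2. The NF-kB list had 2 higher members, with Bcl3 at 0.48 ± 0.10, adjusted p = 0.0114, and 3 lower, and 0 lower without any 1 of 5 libraries (untreated WT replicate 2, both untreated S203AKI, DSS-treated WT replicate 2 or DSS-treated S203AKI replicate 2). It had 1 higher member without untreated WT replicate 2, untreated S203AKI replicate 1, DSS-treated WT replicate 2 or DSS-treated S203AKI replicate 1. Of 17 checkpoint and costimulatory genes 3 were higher and 3 lower. The adhesion receptors Cd226 (-0.97 ± 0.19, adjusted p = 0.0074) and Cd96 (-0.56 ± 0.11, adjusted p = 0.00804), which share a ligand, were lower, and Lag3 and Havcr2 did not pass. Of 16 T cell receptor signalling genes that the rule for T cells did not use, 2 were lower and 0 higher, and 0 were lower without any 1 of 4 libraries (untreated WT replicate 2, untreated S203AKI replicate 1, DSS-treated WT replicate 2 or DSS-treated S203AKI replicate 2). They include Cd4, of which every kept cell had a UMI, and whether the deposited cell list was chosen on it is not stated. They also include Trbc1, whose reads may be split with its near-identical copy Trbc2, a gene that chose the cells.

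The 12 largest falls among genes at least as high in T cells, again chosen after the values were seen, included Plagl1, Prr7, Ubb, Hspd1, Hsp90aa1, AY036118, Hspe1, Zfpm1, Crip1, Pak1 and Irf7. Prr7, a transmembrane adaptor at the T cell synapse, was at 139, 182, 133 and 166 CPM untreated and 83.2, 58.3, 87.7 and 51.3 CPM after DSS (-1.15 ± 0.17, adjusted p = 0.00313). Zfpm1, the GATA cofactor FOG-1, was at 23.6, 31.8, 33.2 and 34.3 CPM untreated and 17.3, 13.2, 13.4 and 13.7 CPM after DSS (-1.09 ± 0.14, adjusted p = 0.00178). All 12 of these falls and all 12 rises above were also called in cells without an other-lineage UMI. These genes were picked for their large called changes, and those cells are part of the same T cells. Such calls, here and below, are therefore not independent support. Of all 2367 genes called over all T cells, 722 were called in those cells. The call of Hspd1 ended without untreated WT replicate 2 (0.0996), untreated S203AKI replicate 1 (0.0814), untreated S203AKI replicate 2 (0.08), DSS-treated WT replicate 2 (0.0766), DSS-treated S203AKI replicate 1 (0.0984) and DSS-treated S203AKI replicate 2 (0.101). That of Hspe1 ended without untreated WT replicate 2 (0.066), untreated S203AKI replicate 1 (0.0589), untreated S203AKI replicate 2 (0.0562), DSS-treated WT replicate 2 (0.0567), DSS-treated S203AKI replicate 1 (0.0626) and DSS-treated S203AKI replicate 2 (0.0618). That of Hsp90aa1 ended without untreated WT replicate 2 (0.0645). That of Pak1 ended without untreated WT replicate 2 (0.0535) and untreated S203AKI replicate 2 (0.0521).

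Heat-shock genes varied widely between libraries of 1 arm. Of 16 chaperone genes 6 were lower and 0 higher, and 1 was lower without untreated WT replicate 2. Hsp90aa1 was at 1694, 3076, 5083 and 5970 CPM untreated and 2065, 1369, 1608 and 1615 CPM after DSS (-1.13 ± 0.27, adjusted p = 0.0179), highest in both untreated S203AKI libraries, and untreated WT replicate 1 lay within the DSS range. Its call ended without untreated WT replicate 2 (0.0645). Hspa1a was at 68.7, 159.6, 1503 and 399 CPM untreated and 177, 152, 118 and 194 CPM after DSS and did not pass (-1.07 ± 0.67, adjusted p = 0.272). In the WT libraries alone its log2 fold change was 0.52, the opposite sign. Without the cells with at least 5 UMIs of Hspa1a and Hspa1b the list had 5 lower and 1 higher members (background 10.1% higher and 10.4% lower).

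Among all genes kept in the ranking by fold change, the 12 largest rises and falls were mostly genes at higher levels outside T cells. The squamous markers Krt5 and Krt14, given below, were left out of it with their list. All 12 rises (among them Krt17, Saa3, Mrc1, Thbs1, Vcam1, Laptm4b, Lgmn, Ptgs2, Slpi, Abca1 and Tgfbi) and 11 of the 12 falls (Tagln, Acta2, Hspb1, Jaml, Tpm2, Atf3, Fabp4, Cxcl9, Crip2, Itga1 and Lmna, with Plagl1 as the exception) were lower in the T cell sums than in barcodes without T cell genes. Of these genes Krt17 and Mrc1 entered only through the DSS arm and Tagln and Acta2 only through the untreated arm. Saa3, an acute phase protein, was at 4.70, 1.43, 3.64 and 1.45 CPM untreated and 10.7, 44.3, 28.04 and 64.05 CPM after DSS in T cells and at 88.5 and 1075 CPM in untreated and DSS barcodes without T cell genes. Of the 12 rises, 8 of the 10 still tested were called in cells without an other-lineage UMI, and of the 12 falls 9 of 9. Tagln, a smooth muscle gene, was at 9.10, 84.96, 18.97 and 4.51 CPM untreated and 1.25, 3.097, 4.37 and 1.93 CPM after DSS, with untreated WT replicate 2 far above the others, and its call ended without untreated S203AKI replicate 1 (0.0634) and DSS-treated WT replicate 2 (0.0617). Laptm4b, a lysosomal membrane protein, was at 5.46, 4.71, 3.49 and 5.24 CPM untreated and 20.9, 21.95, 20.1 and 19.01 CPM after DSS (2.11 ± 0.14, adjusted p = 3.70e-05), against 21.3 and 22.1 CPM outside T cells. It was even across libraries, called in all 22 alternatives and higher in cells both with (1.56 ± 0.24, adjusted p = 0.000845) and without a Foxp3 UMI (1.57 ± 0.31, adjusted p = 0.0105). Jaml, an adhesion molecule of the junction family, was at 17.1, 24.8, 27.8 and 21.7 CPM untreated and 7.39, 7.41, 5.02 and 4.16 CPM after DSS (-1.96 ± 0.21, adjusted p = 0.00086), and was likewise called in all 22. The call of Mrc1 ended without untreated WT replicate 2 (0.0505) and DSS-treated WT replicate 2 (0.0586). That of Slpi ended without untreated WT replicate 2 (0.0643) and DSS-treated S203AKI replicate 1 (0.0524). That of Acta2 ended without untreated WT replicate 2 (0.156), untreated S203AKI replicate 1 (0.0997), DSS-treated WT replicate 1 (0.0896), DSS-treated WT replicate 2 (0.0917) and DSS-treated S203AKI replicate 2 (0.0632). That of Tpm2 ended without untreated WT replicate 2 (0.0761), untreated S203AKI replicate 1 (0.103), DSS-treated WT replicate 1 (0.0673) and DSS-treated WT replicate 2 (0.0749). That of Fabp4 ended without untreated WT replicate 1 (0.0559), untreated S203AKI replicate 2 (0.0832) and DSS-treated S203AKI replicate 1 (0.0584).

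Markers of other cell types in the T cell sums moved with treatment. Squamous epithelial markers summed to 31.5 to 44.9 CPM untreated and 109 to 271 CPM after DSS. Of the 10 markers 7 passed the filter on low counts. Krt5, Krt6a, Krt13, Krt14 and Dmkn, at 0 or under 0.5 CPM in every untreated library, could pass it only through the DSS arm, so the number called carries no information on the list. Ly6d was measured in both arms, at 5.31, 7.00, 8.65 and 11.8 CPM untreated and 14.7, 7.27, 24.2 and 26.3 CPM after DSS (1.11 ± 0.22, adjusted p = 0.00801). Sfn was too, at 26.2, 28.3, 35.8 and 26.03 CPM untreated and 33.03, 39.3, 43.1 and 44.9 CPM after DSS (0.46 ± 0.11, adjusted p = 0.0162), and its call ended without DSS-treated WT replicate 2 (0.0505). The arms overlapped for both genes. Few cells carried most of these UMIs: 12 to 15 cells per DSS library (0.371% to 0.573%), each with at least 3 UMIs of the list, held 69.0% to 90.2% of them, against 5 to 15 cells with 19.2% to 33.5% untreated. In cells without an other-lineage UMI 1 member was tested and 0 were called, and without the cells with at least 5 UMIs of Hspa1a and Hspa1b 2 were tested and 0 called. Their defining keratins were at or near 0 untreated: Krt5 was at 0, 0, 0 and 0 CPM untreated and 12.9, 16.97, 47.7 and 30.5 CPM after DSS, and Krt14 at 0, 0, 0.152 and 0 CPM untreated and 30.7, 30.03, 102 and 76.04 CPM after DSS. Neutrophil markers summed to 12.7 to 34.1 and 20.7 to 116 CPM (4 of 9 members tested, with 3 higher, of which S100a8 and S100a9 entered only through the DSS arm, and 0 higher without DSS-treated WT replicate 2), and in 3 DSS libraries 15 to 33 cells held 78.4% to 84.6% of these UMIs (25.4% in 12 cells of WT replicate 1). Endothelial markers summed to 92.4 to 129 and 63.8 to 79.9 CPM (5 of 7 lower, of which Cdh5, Kdr, Plvap and Emcn entered only through the untreated arm, with 1 still tested and 0 called in cells without an other-lineage UMI). Dendritic cell markers summed to 1135 to 1704 and 428 to 975 CPM (Ccl17, which entered only through the untreated arm, and Cst3 lower, 2 of 8, 2 lower of 5 tested in cells without an other-lineage UMI, and 6 lower without DSS-treated S203AKI replicate 1). Macrophage markers overlapped, at 242 to 376 and 204 to 583 CPM (2 of 9 higher, 0 without any 1 of 5 libraries), as did B cell markers at 2556 to 3826 and 1095 to 6317 CPM (0 of 7 called) and fibroblast markers at 66.6 to 148 and 27.6 to 171 CPM (1 of 8 higher, Mgp, which entered only through the DSS arm, and 2 lower). Of the fibroblast markers 0 were higher and 1 was lower without untreated WT replicate 1, untreated S203AKI replicate 2, DSS-treated WT replicate 2 or DSS-treated S203AKI replicate 2. Cd79a, Col3a1 and C1qa, which chose the cells, are in these sums and left out of the counts. Markers of B cells, dendritic cells and macrophages were spread over more cells. At least 3 B cell marker UMIs were in 40.2% to 80.5% of T cells per untreated library and 35.6% to 98.9% after DSS. For dendritic cell markers such cells made up 7.26% to 11.2% per library and held 75.4% to 91.4% of the UMIs of that list. For macrophage markers they made up at most 11.4% untreated and 16.7% after DSS. Doublets were not called. The part of other cell types or their free RNA in the T cell results was not tested beyond the cells without an other-lineage UMI (B cell, macrophage and fibroblast markers only). In those cells Foxp3, Itgae, Itgb8, Tnfrsf9, Ifng, Crip1, Atf3, Tiparp, Irf7 and Isg15 were called with the same sign.

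**Figure D5:**
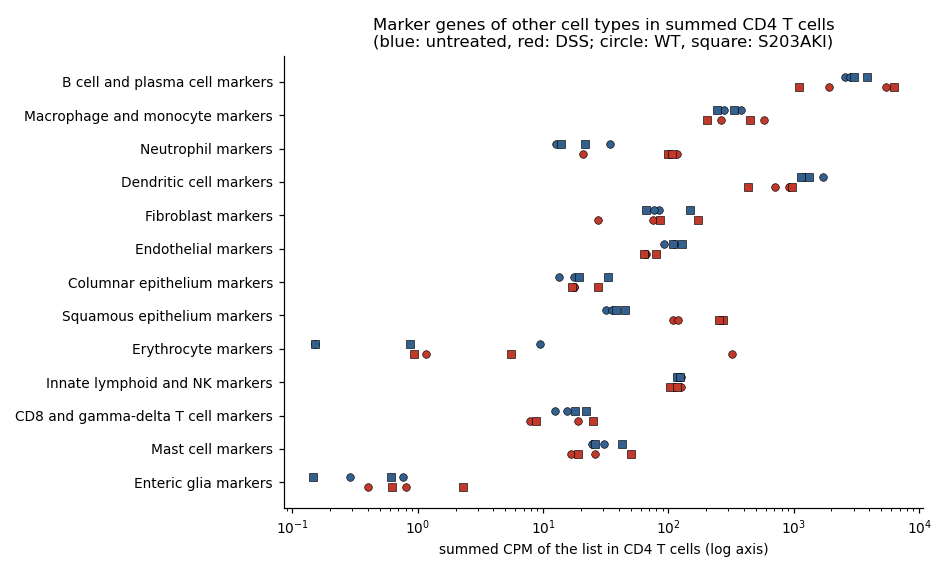
Summed level of marker gene lists of other cell types in the T cell sums (CPM, log axis), 1 point per library (blue untreated, red DSS, circles WT, squares S203AKI). Squamous markers lie higher in all DSS libraries, and endothelial and dendritic cell markers lie lower in all of them.

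Whether the DSS effect differed between WT and S203AKI mice was tested as an interaction. With edgeR 0 of 10965 genes passed, the smallest adjusted p was 0.998, 409 genes had an unadjusted p under 0.05 and DESeq2 called 1. With 2 libraries per group this does not show that the genotypes respond alike, and the pooled fold changes above are averages over both genotypes. Foxp3 rose by 1.31 in WT and 1.58 in S203AKI mice on the log2 scale, Itgae by 1.38 and 1.24, and the log2 fold change of Ifng was -0.76 and -1.02.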

How the data were processed

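UMI counts per gene and barcode were deposited for 8 libraries. Cell Ranger 3.1.0, Seurat 4.0.1 and the mm10 build are named, with no role, in the submitters' processing notes. How the deposited cell list was chosen, and whether doublets were removed, is not given in the sources used here, and no doublet caller was run. Samples were grouped by their titles.

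Counts were summed per library over the T cells and tested with edgeR 4.0.16 (quasi-likelihood test, TMM, filterByExpr by arm, genotype as covariate), with Benjamini-Hochberg adjustment over all genes tested and a threshold of 0.05. Levels are CPM, counts scaled to the TMM-adjusted library total. Those in barcodes without T cell genes are plain CPM. Fold changes are DSS over untreated. The scripts were tested on simulated counts. Shares of cells were compared by an exact permutation test over libraries. DESeq2 1.42.0, limma 3.58.1 (voom), other filters and cell sets, and each library left out in turn were alternatives. Errors on levels and shares are the SD of 4 libraries per arm. Those on log2 fold changes are standard errors derived from the edgeR fit, in which genes share information on their spread. Each is the absolute log2 fold change divided by the square root of the quasi-likelihood F statistic. The depth per library is given in the text.

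The members and gene lists were chosen with earlier results of these data known. Named genes were the 12 largest called rises and falls with at least 20 CPM in the higher arm and the same sign in both genotypes. That ranking left out genes of the other-cell-type and sex-linked lists, immunoglobulin, T cell receptor segment and haemoglobin genes. Also named were the up to 4 largest called members and the first 3 members of each list, and called markers of other cell types. Other genes were named after their values were seen, and so were the genes at least as high in T cells and the test of the difference between cells with and without a Foxp3 UMI. Gene coordinates come from GENCODE M21 and promoter sequences from RefSeq (GRCm38.p6). Analyses used R 4.3.3, python 3.11.15, scipy 1.17.1 and pandas 2.3.3. Results for some genes are not reported here.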

Additional observations from a re-analysis of the deposited data

Results flagged for a closer look

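In 310 groups of 4 libraries examined, 16 had 1 library far from the other 3 by Dixon's criterion, which chance gives in about 1 of 20. The number flagged is near that share, so single flags below may be chance. Among untreated libraries, WT replicate 1 was high for the lysosomal protease gene Lgmn (35.5 CPM, others 17.5 to 19.1) and for Tnfrsf9 (147 CPM, others 105 to 111). WT replicate 2 was high for the smooth muscle actin gene Acta2 (62.3 CPM, others 3.05 to 12.3) and for Socs2, a cytokine signalling inhibitor (72.8 CPM, others 55.1 to 58.0). S203AKI replicate 1 was high for the inhibitory receptor gene Pdcd1 (34.3 CPM, others 24.4 to 25.3) and for Cd3e, which was used to choose the cells (378 CPM, others 343 to 347). S203AKI replicate 2 was high for the fatty acid binding protein gene Fabp4 (50.3 CPM, others 9.57 to 14.1) and for Il17a (1238 CPM, others 342 to 428). It was low in the share of cells with a Foxp3 UMI (3.00%, others 4.04% to 4.22%) and with a Mki67 UMI (3.89%, others 5.84% to 6.13%).

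Among DSS libraries, WT replicate 1 was high for Zfpm1 (17.3 CPM, others 13.2 to 13.7) and WT replicate 2 for Bcl3 (83.4 CPM, others 71.7 to 73.2). S203AKI replicate 1 was low for the replication gene Mcm5 (38.7 CPM, others 47.3 to 48.9) and for Mki67 (95.4 CPM, others 159 to 171). S203AKI replicate 2 was high for the T-box factor gene Eomes (9.26 CPM, others 5.61 to 5.92) and low for Cd3d, also used to choose the cells (453 CPM, others 533 to 546).

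For 18 genes, those chosen by the naming rule and those whose difference is described above, the DSS effect differed between T cells with and without a Foxp3 UMI, by the test of the difference itself. It was more positive in the cells with Foxp3 for Mki67 (1.27 on the log2 scale), Ube2c (1.13), Rrm2 (1.06) and Top2a (0.85). It was more negative there for Tbx21 (-1.13), Il12rb2 (-1.06), Ifng (-1.05), Tcf7 (-0.98), Nkg7 (-0.67), Il10 (-0.67), S1pr1 (-0.60), Prr7 (-0.52), Socs3 (-0.45), Klf2 (-0.39), H2-Q7 (-0.34), Smad7 (-0.34), Nfkb1 (-0.30) and H2-K1 (-0.30).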

How the results depend on the processing

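The number of genes called over all T cells, 2367, was 121 in WT and 164 in S203AKI libraries alone and 1269 in thinned cells. It was 791 in cells without an other-lineage UMI. Of the 6389 tested genes at least as high in T cells, the main fit called 1531 (24.0%), against 21.6% of all genes tested. With T cells on or off the cell list the number called was 3309 of 12661 tested, of which 2123 were also called in the main fit. Leaving out each library gave 1075 to 2574 genes. In cells with a Foxp3 UMI it gave 452 to 1073, and in cells without one 468 to 1906, with 2552 there without a filter on low counts. The genotype interaction, with 0 genes, had 1 with DESeq2, 83 without the filter and 0 to 3 with each library left out, the 3 without DSS-treated S203AKI replicate 1. The difference between classes, with 277 genes, had 540 without the filter and 123 to 324 with each library left out. Fewer genes or samples enter several of these fits, and otherwise the cause was not tested.

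No named gene that was called in all T cells had the opposite sign under any alternative except Xcl1 in cells without an other-lineage UMI (0.0871). Log2 fold changes of genes that did not pass changed sign as follows. In WT libraries alone they were 0.0192 for Gata3, 0.18 for Bcl6, 0.14 for Tcf7, -0.0099 for Itgb7, 0.52 for Hspa1a, 0.84 for Hspa1b, 0.016 for Hspa8, 0.19 for Lag3, 0.15 for Rel, -0.0538 for Socs2, 0.0163 for Mvk and -0.0596 for Top2a. In S203AKI libraries alone they were -0.19 for Il17a, -0.0196 for Havcr2, -0.033 for Socs3 and -0.0094 for Slc2a1. In thinned cells they were 0.0958 for Bcl6, -0.0183 for Itgb7, -0.23 for Havcr2, -0.13 for Slc2a1, -0.0422 for Mki67 and -0.12 for Top2a. In cells without an other-lineage UMI they were 0.40 for Bcl6, -0.0626 for Itgb7, -0.0943 for Havcr2, -0.0927 for Mki67 and -0.0425 for Top2a. With T cells on or off the cell list they were 0.0915 for Bcl6, -0.0202 for Itgb7 and 0.0808 for Mvk. Il17a was at -0.0097 without the genotype term. With limma-voom, without and with a random effect for neighbouring title numbers, Il17a was at -0.22 and -0.23 and Itgb7 at -0.0006 and -0.0008. Hspa1b was at 0.31 without heat-shock-high cells and Mvk at 0.0031 without the filter.

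With each library left out, the log2 fold change ranged from -0.0927 to 0.0179 for Gata3, -0.59 to 0.50 for Il17a, -0.13 to 0.0103 for Bcl6, -0.0843 to 0.0853 for Itgb7, -1.12 to 0.14 for Hspa1b, -0.19 to 0.0513 for Nfkb2, -0.0785 to 0.0665 for Mvk, -0.0718 to 0.26 for Mki67 and -0.059 to 0.15 for Top2a. The difference in the share of cells, in percentage points, ranged from -4.58 to 4.52 for Il17a, -1.42 to 0.225 for Tcf7, -0.0834 to 1.25 for Gzmb and -0.154 to 0.839 for Mki67, and was 0.355 for Tcf7 with at least 2 UMIs. The numbers in the titles neighbour each other between genotypes within an arm, so they cannot pair DSS with untreated libraries. With those neighbours as a random effect (estimated correlation 0.105), limma-voom called 1835 genes, against 2260 for limma-voom without it.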
